A study of Homo sapiens with 12 samples.

Results

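The 10 genes described here mark the mesenchymal state of neuroblastoma: VIM, THY1, SNAI2, PRRX1, TWIST1, ZEB1, FOSL1, FOSL2, NOTCH2 and CD44. They were chosen by name, and every probe annotated to them was taken, which gave 17 of the 47313 probes with values. Earlier results of these data were known when they and the gene lists used below were chosen. A probe was tested when its detection p was below 0.05 on at least 3 of the 12 arrays. This left 14 of the 17 probes and 9 of the 10 genes, among 22188 tested probes in all. The single ZEB1 probe was detected on 0 of 12 arrays, as were NOTCH2 probes ILMN_1777845 and ILMN_1777758.

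RNA came from Tet21N, a human neuroblastoma cell line derived from SH-EP cells that carries an N-Myc transgene which doxycycline switches off. All cells carried that transgene and all were transfected, with an siRNA against MondoA (siMondoA; the gene is MLXIP) or a non-specific siRNA (siControl), and were given doxycycline at 1 microgram/ml for 3 days (Myc off) or were left untreated (Myc on). This gave 4 groups of 3 Illumina bead arrays: doxycycline-treated siMondoA cells, untreated siMondoA cells, doxycycline-treated siControl cells and untreated siControl cells. The study asked what MondoA contributes to cells with deregulated Myc. Every Myc-off array was treated with the drug, so loss of Myc and doxycycline itself cannot be told apart. The labels and the design text give transfection and doxycycline in different orders, and neither states whether the replicates were grown separately: the p-values reflect spread among these arrays alone, which may be technical.

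Neuroblastoma cells occur in an adrenergic state, with the transcription factors and enzymes of noradrenaline-producing neurons, and in a mesenchymal state, which resembles migratory neural crest cells and can be reached from the adrenergic one. Mesenchymal cells express the intermediate filament vimentin (VIM) and the surface proteins THY1 and CD44, and are driven by factors such as PRRX1, the AP-1 subunits FOSL1 and FOSL2, the epithelial-mesenchymal transition (EMT) factors SNAI2, TWIST1 and ZEB1, and Notch receptors such as NOTCH2. SH-EP cells, from which the line descends, are a standard example of the mesenchymal state.

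Promoter windows of 6 of the 10 genes were searched, taken from RefSeq's table for GRCh38.p14. Each ran from 250 bases before to 50 bases after an annotated start. ZEB1 had 7 such windows and the other 5 genes had 1 each. No window of THY1, SNAI2, TWIST1 or FOSL1 was searched, so their promoters are not described. The windows of VIM and CD44 are shown because 1 probe of each had a doxycycline response that differed between siRNAs. That of NOTCH2 is shown because it was the member that fell most with the knockdown. That of FOSL2 is shown because it holds an AP-1 element. Capitals mark a match to the AP-1 element TGANTCA on either strand.
VIM (chr10:17227991-17228290, plus strand): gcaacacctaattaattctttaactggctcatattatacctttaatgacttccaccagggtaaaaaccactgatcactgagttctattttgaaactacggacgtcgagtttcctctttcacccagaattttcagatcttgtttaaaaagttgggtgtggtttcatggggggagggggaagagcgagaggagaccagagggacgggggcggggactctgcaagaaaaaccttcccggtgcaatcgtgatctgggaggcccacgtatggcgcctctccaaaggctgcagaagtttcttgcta
CD44 (chr11:35138921-35139220, plus strand): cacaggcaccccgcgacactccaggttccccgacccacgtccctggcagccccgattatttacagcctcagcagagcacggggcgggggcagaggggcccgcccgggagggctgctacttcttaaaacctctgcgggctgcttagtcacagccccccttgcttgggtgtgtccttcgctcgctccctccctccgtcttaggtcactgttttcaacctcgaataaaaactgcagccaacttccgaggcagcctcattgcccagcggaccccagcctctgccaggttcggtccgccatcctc
NOTCH2 (chr1:120069613-120069912, minus strand): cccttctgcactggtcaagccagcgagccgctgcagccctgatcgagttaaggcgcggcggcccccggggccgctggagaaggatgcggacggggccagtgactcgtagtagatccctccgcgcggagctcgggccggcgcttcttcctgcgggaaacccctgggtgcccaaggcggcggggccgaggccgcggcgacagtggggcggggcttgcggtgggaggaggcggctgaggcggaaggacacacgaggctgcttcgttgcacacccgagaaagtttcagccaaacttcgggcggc
FOSL2 (chr2:28392608-28392907, plus strand): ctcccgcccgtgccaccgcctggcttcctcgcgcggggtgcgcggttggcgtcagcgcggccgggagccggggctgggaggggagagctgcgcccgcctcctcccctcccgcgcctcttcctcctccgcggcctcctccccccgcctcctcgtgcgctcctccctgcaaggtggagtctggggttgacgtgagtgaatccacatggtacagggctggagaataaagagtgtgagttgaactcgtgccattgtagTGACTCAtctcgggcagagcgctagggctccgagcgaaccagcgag
Both strands were searched for TGANTCA, for the E-box CACGTG that MYC, MAX and MondoA family dimers bind, and for the E-box CACCTG, bound by SNAI and ZEB factors, whose other strand reads CAGGTG. The FOSL2 window held 1 AP-1 element, beginning at base 255 of the 300, and no match to the E-boxes. The windows of VIM, CD44, NOTCH2 and PRRX1 held none of the 3 motifs. Of the 7 ZEB1 windows, 2 held CACCTG on either strand, with 1 and 3 matches, and none held CACGTG or TGANTCA. Of all 35116 windows in the table, 7.71% held TGANTCA, 7.26% held CACGTG and 20.6% held CACCTG or CAGGTG. Base composition differed widely among members: NOTCH2 had 70.3% G and C with 33 CpG, FOSL2 68.7% with 29, CD44 63.3% with 18, PRRX1 53.0% with 11 and VIM 48.0% with 10, against medians of 58.7% and 14 over all windows.

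Between 18521 and 20726 probes were detected per array (39.1% to 43.8%), and arrays correlated at 0.985 to 0.99 within groups and 0.952 to 0.975 between them. The MLXIP probe was detected on 1 of 12 arrays and the 2 MYCN probes on 0, which left the labels without a check by the targeted genes. TXNIP, a direct MondoA target, fell by 4.42 on the log2 scale with siMondoA under doxycycline (21.4-fold lower) and fell by 3.35 without it (10.2-fold lower). Endogenous MYC (ILMN_1680618) was higher with doxycycline in siControl cells by 2.95 and higher with siMondoA in untreated cells by 1.78 on the log2 scale. Of the adrenergic genes on the array 14 of 27 were detected, among them HAND2, GATA2, GATA3, ISL1, TBX2, ALK, RET and CHGB. Those below the detection rule included PHOX2A, TH, DBH, DDC and CHGA. Detected markers of other cell types were 8 of 16 of epithelium (without CDH1, ESRP1 and GRHL2), 4 of 5 of fibroblasts (without DPT), 2 of 5 of blood (LYZ and CD14, without PTPRC, CD3E and HBB), 1 of 5 of endothelium (PECAM1, without CDH5, KDR and VWF) and 3 of 5 of Schwann cells and melanocytes (ERBB3, MITF and PMEL, without SOX10 and S100B). With the knockdown under doxycycline CD14 rose by 0.62 (adjusted p = 0.045) and LYZ was at least 1.59-fold higher (adjusted p = 0.012) than in siControl cells. PECAM1 was at least 1.09-fold lower there (adjusted p = 0.0096). The summed normalized intensity of all 5 blood markers on the array, detected or not, was 173 to 190 in doxycycline-treated siMondoA cells. In doxycycline-treated siControl cells it was 131 to 150. The part of these markers in the results below was not tested.

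All levels below are normalized log2 intensities, and changes are log2 differences with their SE from limma, with p-values adjusted over all 22188 probes and called at 0.05. A knockdown change is siMondoA minus siControl, a doxycycline change is treated minus untreated, and the interaction is the knockdown change with doxycycline minus that without it. The knockdown changes and the doxycycline changes share groups of arrays and are not independent of each other. In bulk RNA, fewer cells of a kind and less RNA per cell cannot be told apart.

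Without doxycycline, siMondoA raised SNAI2, FOSL1, CD44, PRRX1 and VIM and lowered NOTCH2. By probe 7 of 14 rose and 1 fell, against 7.85% and 8.83% of all probes. Counted by each gene's brightest probe, 5 of 9 genes rose and 1 fell, against 9.89% and 10.5% of 12178 genes. The median knockdown change of the 9 genes was 0.43, against 0.03 over all genes.

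With doxycycline the members split: SNAI2, FOSL1, PRRX1 and TWIST1 rose with siMondoA while NOTCH2, THY1 and VIM fell. By probe 5 of 14 rose and 3 fell, against 17% and 17.9% of all probes. By gene 4 of 9 rose and 3 fell, against 20% and 20.2% of all genes, and the median change was 0.22 against 0.03 over all genes.

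Doxycycline raised 2 of the 9 genes in siMondoA cells and 4 in siControl cells. In siMondoA cells 3 of 14 probes rose and 1 fell (9.93% and 11.2% of all probes), or by gene 2 of 9 rose, SNAI2 and TWIST1, and 1 fell, THY1 (12.7% and 12.7% of all genes). In siControl cells 7 of 14 probes rose and 0 fell (11.4% and 11% of all probes), or by gene 4 of 9 rose, SNAI2, VIM, THY1 and NOTCH2, and 0 fell (14.4% and 12.4% of all genes). The median doxycycline change of the 9 genes was -0.14 in siMondoA cells and 0.36 in siControl cells, against 0.02 and 0.01 over all genes. The interaction was negative for 3 of 14 probes and positive for 0 (3% and 1.93% of all probes), or by gene for 2 of 9 and 0 (3.58% and 2.23% of all genes).

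The balance of these counts depends on scaling. As an alternative to quantile normalization each array was scaled to 1 median, taken over all 47313 probes with values. Per array 39.1% to 43.8% of these were detected, so most probes behind that median were not. With this scaling the median change of all tested probes was 0.15 for the knockdown without doxycycline and -0.06 with it. It was -0.12 for doxycycline in siMondoA cells, 0.08 in siControl cells and -0.24 for the interaction. Of all calls, the share that was positive was then 77%, 34.3%, 21.7%, 73.3% and 5.54% in that order, against 47.1%, 48.7%, 47%, 50.8% and 39.2% with quantile normalization.

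**Figure D1:**
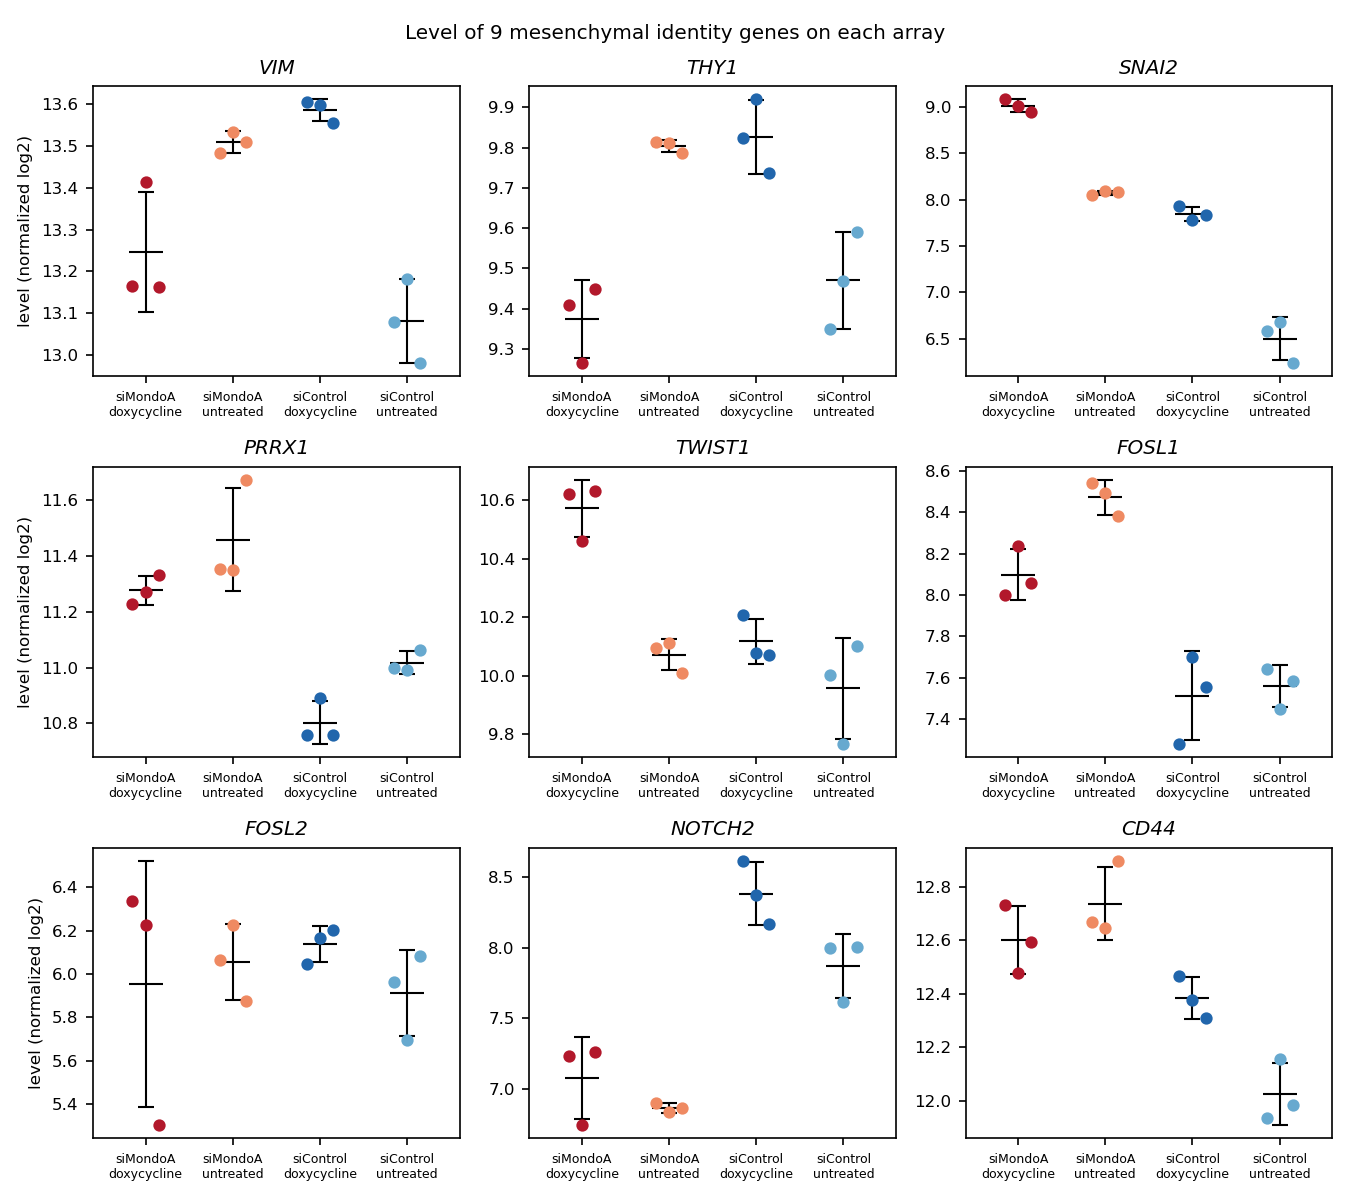
Normalized log2 level of the brightest probe of each of the 9 detected genes on every array (coloured points), by group, with the mean and SD of 3 arrays (black dash and bars). SNAI2 is highest in doxycycline-treated siMondoA cells and lowest in untreated siControl cells, NOTCH2 is lower in both siMondoA groups, and VIM and THY1 are higher in untreated siMondoA and doxycycline-treated siControl cells than in the other groups.

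SNAI2 (Slug), a zinc finger repressor of epithelial genes that acts in neural crest delamination, responded to both factors in the same direction. Its brighter probe, ILMN_2082585, read 9.08, 9.01 and 8.94 in doxycycline-treated siMondoA cells, 8.05, 8.09 and 8.08 in untreated siMondoA cells, 7.93, 7.78 and 7.83 in doxycycline-treated siControl cells and 6.58, 6.68 and 6.24 in untreated siControl cells. The 4 groups stood in that order with no overlap between neighbours. Without doxycycline the knockdown change was 1.57 ± 0.13 (2.98-fold, adjusted p = 7.4e-06), and with doxycycline it was 1.17 ± 0.13 (adjusted p = 2.3e-05). Doxycycline raised the probe by 0.94 in siMondoA cells (adjusted p = 0.00031) and by 1.34 in siControl cells (adjusted p = 2.4e-05). The interaction of -0.41 did not pass (adjusted p = 0.22, unadjusted 95% interval -0.80 to -0.02).

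The dimmer SNAI2 probe, ILMN_1655740, was called in the same 4 comparisons, with knockdown changes of 0.91 with doxycycline and 1.20 without and doxycycline changes of 0.76 in siMondoA cells and 1.05 in siControl cells. The 2 probes correlated at 0.99 over the 12 arrays. All 8 of these calls held under every alternative tried that included the probe. On the deposited log2 values, which carry no background correction, the sizes were smaller: the knockdown change of ILMN_2082585 without doxycycline was 0.93 and its doxycycline change in siControl cells 0.77.

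PRRX1, a homeodomain factor that can by itself shift neuroblastoma cells towards the mesenchymal state, was higher with siMondoA with and without doxycycline. Probe ILMN_1739496 read 11.23, 11.27 and 11.33 in doxycycline-treated siMondoA cells, 11.35, 11.35 and 11.67 in untreated siMondoA cells, 10.76, 10.89 and 10.76 in doxycycline-treated siControl cells and 11, 10.99 and 11.06 in untreated siControl cells. Every siMondoA array lay above every siControl array. The knockdown change was 0.47 ± 0.12 with doxycycline (adjusted p = 0.0073) and 0.44 ± 0.12 without it (adjusted p = 0.022). The doxycycline changes of -0.18 and -0.21 in siMondoA and siControl cells did not pass (adjusted p = 0.31 and 0.23). Within each siRNA, though, every doxycycline-treated array lay below every untreated array. The call without doxycycline was lost in a fit of its 2 groups only (adjusted p = 0.067) and when untreated siMondoA replicate 3 (adjusted p = 0.076) or untreated siControl replicate 1 (0.065) or 2 (0.066) was left out, and the call with doxycycline reached 0.052 under median scaling. The dim probe ILMN_1811851, at 5.81 to 6.95, passed in 0 of the limma comparisons (unadjusted p between 0.187 and 0.78) and correlated with the brighter one at 0.46.

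TWIST1, a basic helix-loop-helix EMT factor, was highest where knockdown and doxycycline were combined. Its probe read 10.62, 10.46 and 10.63 in doxycycline-treated siMondoA cells, 10.09, 10.11 and 10.01 in untreated siMondoA cells, 10.21, 10.08 and 10.07 in doxycycline-treated siControl cells and 10.0, 9.77 and 10.1 in untreated siControl cells. The first group stood above the others, which overlapped. With doxycycline the knockdown change was 0.45 ± 0.12 (adjusted p = 0.01), and without it 0.11 (adjusted p = 0.57, 95% interval -0.14 to 0.37). Doxycycline raised TWIST1 by 0.50 in siMondoA cells (adjusted p = 0.01), and the 0.16 in siControl cells did not pass (adjusted p = 0.39). The interaction of 0.34 did not pass (adjusted p = 0.28), so a difference between the siRNAs was not shown. Under median scaling both calls were lost, at 0.43 (adjusted p = 0.056) and 0.30 (adjusted p = 0.23).

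The other EMT factors followed no common direction. Of 12 listed genes 5 were tested, and SNAI1, SNAI3, PRRX2, FOXC2, GSC and KLF8 were below the detection rule. TCF3, the E protein partner of basic helix-loop-helix factors, fell in all 4 pairwise comparisons: its knockdown change was -0.76 with doxycycline and -0.42 without (adjusted p = 0.00035 and 0.028), and its doxycycline change -1.05 in siMondoA cells and -0.72 in siControl cells (adjusted p = 0.0001 and 0.0011). Under median scaling the knockdown change without doxycycline was -0.19 (adjusted p = 0.47). ZEB2, the paralog of ZEB1, rose by 0.59 with siMondoA under doxycycline (adjusted p = 0.0033) and by 0.62 with doxycycline in siMondoA cells (adjusted p = 0.0048), and neither call held under median scaling (adjusted p = 0.16 and 0.12). TWIST2 fell with doxycycline in siControl cells by 0.66 (adjusted p = 0.033; 0.16 under median scaling). Under median scaling the list held 1 higher and 0 lower calls for the knockdown without doxycycline. With quantile normalization it held 0 and 1 (9.89% and 10.5% of all genes).

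Among 16 other mesenchymal-state transcription factors tested, 4 rose and 1 fell with the knockdown under doxycycline (20% and 20.2% of all genes) and 3 rose and 1 fell without it (9.89% and 10.5%). ID1, an inhibitor of basic helix-loop-helix factors, was 2.61-fold higher with doxycycline and 2.82-fold higher without (adjusted p = 3.3e-05 and 5.9e-05), while its second probe, ILMN_1665832, changed by 0.13 and 0.56 and passed without doxycycline only. SMAD3, a transducer of TGF-beta signals, was 2.01-fold lower with doxycycline and 1.61-fold lower without (adjusted p = 4e-05 and 0.0019), the last at adjusted p = 0.072 under median scaling. For doxycycline, 0 rose and 1 fell in siMondoA cells (12.7% and 12.7% of all genes). In siControl cells 3 rose and 1 fell (14.4% and 12.4%). There RUNX1 rose by 0.58 (adjusted p = 0.0088) and SIX4 fell by 0.85 (adjusted p = 0.00047). The median change of the list lay between -0.01 and 0.27 in the 4 pairwise comparisons.

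FOSL1 (FRA1), an AP-1 subunit, rose with the knockdown under both conditions. Its probe read 8.0, 8.24 and 8.06 in doxycycline-treated siMondoA cells, 8.54, 8.49 and 8.38 in untreated siMondoA cells, 7.28, 7.7 and 7.56 in doxycycline-treated siControl cells and 7.64, 7.45 and 7.59 in untreated siControl cells. Every siMondoA array lay above every siControl array, and the siControl groups overlapped. The knockdown change was 0.59 ± 0.13 with doxycycline (adjusted p = 0.0041) and 0.91 ± 0.13 without it (1.88-fold, adjusted p = 0.00063). Doxycycline changed FOSL1 by -0.37 in siMondoA cells (adjusted p = 0.063) and -0.05 in siControl cells (adjusted p = 0.85), and neither passed. The adjusted p of the knockdown change with doxycycline was 0.057 under median scaling. The fall with doxycycline in siMondoA cells passed there, at -0.59 (adjusted p = 0.015). It also passed on the deposited log2 values (-0.28, adjusted p = 0.018), at offset 50 (0.035) and with 1 probe per gene (0.04), among others. Elsewhere it did not pass, with adjusted p up to 0.17. FOSL2 (FRA2) read between 5.3 and 6.34 and passed in 0 of the limma comparisons (unadjusted p between 0.331 and 0.665). Its lowest value was in doxycycline-treated siMondoA replicate 3, and without that array its knockdown change with doxycycline was 0.14 in place of -0.18.

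Of 9 other AP-1 family genes tested, 0 rose and 2 fell with the knockdown under doxycycline (20% and 20.2% of all genes), and 1 rose and 1 fell without it (9.89% and 10.5%). JUND fell by 0.82 with doxycycline and fell by 0.87 without (adjusted p = 0.00024 and 0.00049). JUN, the usual partner of FOS proteins, fell by 0.64 with siMondoA under doxycycline and rose by 0.39 without it (adjusted p = 0.00097 and 0.036), with an interaction of -1.04 ± 0.17 (adjusted p = 0.0043). The rise without doxycycline was lost under 7 alternatives, among them without untreated siMondoA replicate 2 (0.11) or untreated siControl replicate 2 (0.12). Doxycycline raised JUN by 0.40 in siMondoA cells and by 1.44 in siControl cells (adjusted p = 0.028 and 7.3e-06), the first at 0.4 under median scaling. FOS and BATF were below the detection rule.

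Of 9 AP-1 target genes, 4 rose and 1 fell with the knockdown under doxycycline (20% and 20.2% of all genes) and 4 rose and 0 fell without it (9.89% and 10.5%). MMP3, a matrix metalloprotease, rose by 2.88 ± 0.17 with doxycycline and by 4.03 ± 0.17 without (adjusted p = 2.2e-07 and 3.9e-08). HMGA2, a chromatin architectural protein, rose by 0.89 and 1.36 (adjusted p = 0.0019 and 0.00033), while its second probe, ILMN_1666236, passed in neither (-0.04 and 0.40). PLAU, the urokinase protease, fell by 1.71 with siMondoA under doxycycline (adjusted p = 1.6e-06), and its interaction was -1.98 ± 0.19 (adjusted p = 0.00013). The median change of the list was 0.23 with doxycycline and 0.34 without, against 0.03 over all genes in both.

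NOTCH2, a receptor whose intracellular part activates transcription after cleavage, was the 1 member that fell with the knockdown under both conditions. Probe ILMN_2405297 read 7.23, 6.74 and 7.26 in doxycycline-treated siMondoA cells, 6.9, 6.83 and 6.86 in untreated siMondoA cells, 8.62, 8.37 and 8.17 in doxycycline-treated siControl cells and 8.0, 7.61 and 8.0 in untreated siControl cells. Every siMondoA array lay below every siControl array, and the siMondoA groups overlapped. The knockdown change was -1.31 ± 0.17 with doxycycline (2.47-fold lower, adjusted p = 8.9e-05) and -1.01 ± 0.17 without it (2.01-fold lower, adjusted p = 0.0018). On the deposited log2 values these were -0.86 and -0.61. Doxycycline raised NOTCH2 by 0.51 in siControl cells (adjusted p = 0.047), a call lost when any of 9 of the 12 arrays was left out (adjusted p between 0.052 and 0.18, highest without doxycycline-treated siControl replicate 1 or untreated siControl replicate 2). The 0.21 in siMondoA cells did not pass (adjusted p = 0.42). NOTCH2 has near-identical NOTCH2NL copies, and whether the probe also reads them was not tested.

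Of 17 other Notch pathway genes tested, 3 rose and 6 fell with the knockdown under doxycycline (20% and 20.2% of all genes), and 1 rose and 6 fell without it (9.89% and 10.5%). The median change was 0.09 with doxycycline, where it turned to -0.02 under median scaling, and -0.12 without, against 0.03 over all genes. NCSTN, a subunit of the gamma-secretase that releases the active Notch fragment, fell by 2.21 ± 0.11 with doxycycline and fell by 0.99 ± 0.11 without (adjusted p = 4.9e-08 and 6.4e-05), and its interaction was -1.22 (adjusted p = 0.00093). NOTCH3 was not detected on any doxycycline-treated siMondoA array and was at least 2.46-fold lower there than in doxycycline-treated siControl cells (adjusted p = 0.0011); without doxycycline it fell by 1.41 (adjusted p = 0.0041). LFNG, a glycosyltransferase that modifies Notch receptors, fell by 1.49 with siMondoA under doxycycline (adjusted p = 4.7e-06), and the Notch target HES4 fell by 1.11 without it (adjusted p = 0.0013). Doxycycline raised 3 genes and lowered 3 in siMondoA cells (12.7% and 12.7% of all genes) and raised 3 and lowered 3 in siControl cells (14.4% and 12.4%). NOTCH1 fell by 0.95 in siControl cells (adjusted p = 0.0055) and LFNG fell by 1.06 in siMondoA cells (adjusted p = 0.00018).

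**Figure D2:**
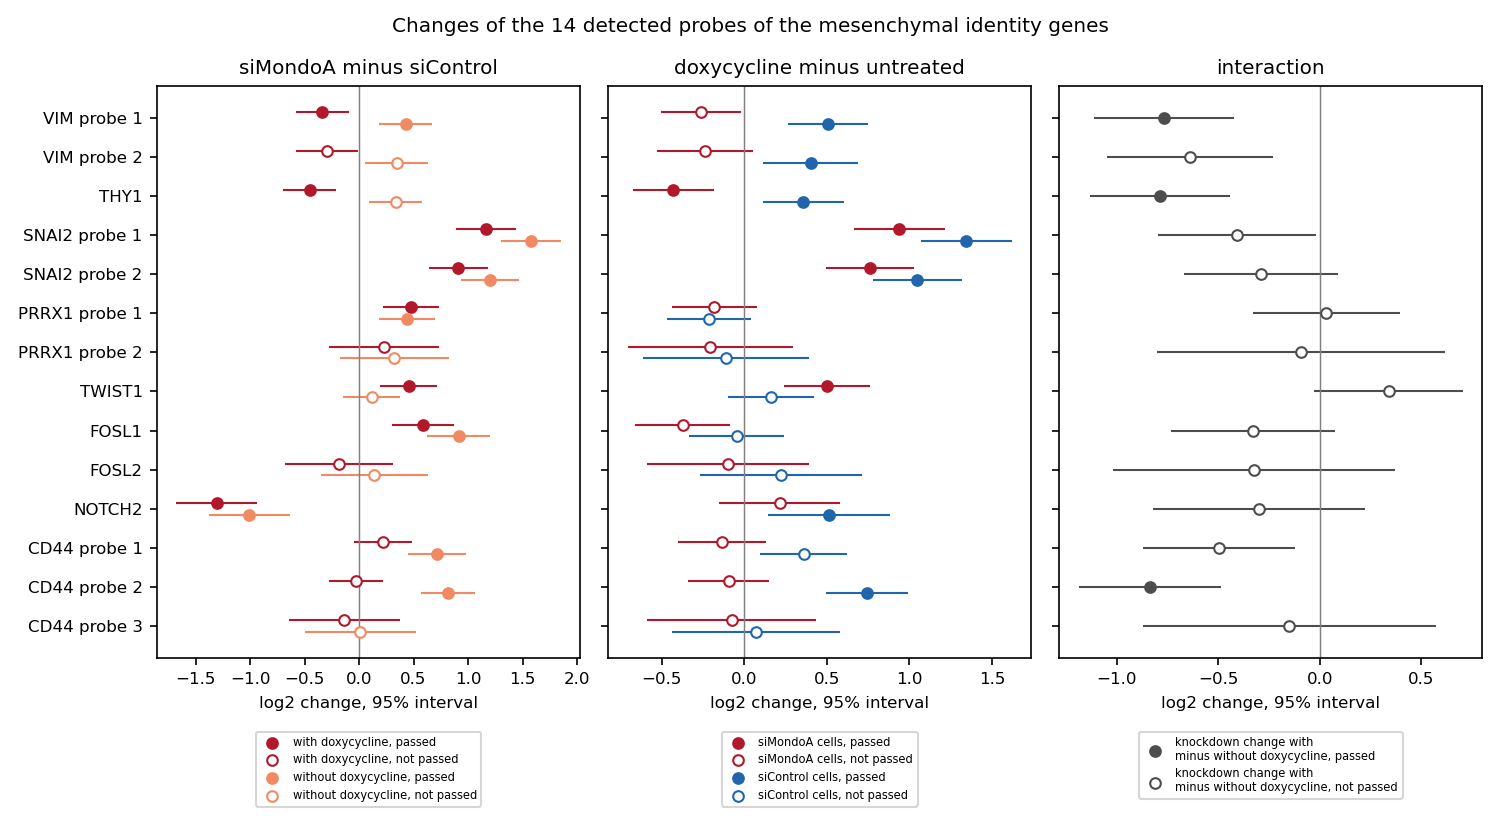
Log2 change with its 95% interval for the 14 detected member probes (rows), for siMondoA minus siControl (left), doxycycline minus untreated (middle) and the interaction (right); filled points passed the adjusted p threshold and open points did not. SNAI2, PRRX1 probe 1 and FOSL1 lie right of 0 and NOTCH2 left of 0 in both knockdown comparisons, and VIM probe 1, THY1 and CD44 probe 2 have filled points below 0 in the interaction.

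VIM, the vimentin intermediate filament protein, rose with the knockdown without doxycycline and fell with it under doxycycline. Probe ILMN_1782538 read 13.16, 13.41 and 13.16 in doxycycline-treated siMondoA cells, 13.48, 13.53 and 13.51 in untreated siMondoA cells, 13.6, 13.6 and 13.56 in doxycycline-treated siControl cells and 13.08, 13.18 and 12.98 in untreated siControl cells. The untreated siMondoA and the doxycycline-treated siControl arrays were the 6 highest, and the doxycycline-treated siMondoA and untreated siControl arrays overlapped. With doxycycline the knockdown change was -0.34 ± 0.11 (adjusted p = 0.032), and without it 0.43 ± 0.11 (adjusted p = 0.02). Doxycycline raised VIM by 0.51 in siControl cells (adjusted p = 0.0064), and the -0.26 in siMondoA cells did not pass (adjusted p = 0.12). The interaction was -0.77 ± 0.16 (adjusted p = 0.017) and passed under every alternative, with adjusted p between 0.00014 and 0.049. The highest of these was under median scaling, with an interaction of -0.75. There the median interaction of all tested probes was itself -0.24, and VIM lay -0.51 from it.

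The separate VIM changes were less firm than their difference. The knockdown change with doxycycline was -0.18 under median scaling (adjusted p = 0.42) and was lost without doxycycline-treated siMondoA replicate 1 (0.11) or 3 (0.11) or without any doxycycline-treated siControl replicate (0.064 to 0.081). That without doxycycline was lost without untreated siMondoA replicate 2 (0.062) or untreated siControl replicate 1 (0.056) or 3 (0.076), and the doxycycline change in siControl cells under median scaling (0.089). The second VIM probe, ILMN_2058251, had changes of the same signs, with an interaction of -0.64 (adjusted p = 0.071), and passed for doxycycline in siControl cells (0.40, adjusted p = 0.047), a call lost when any array of those 2 groups was left out (0.064 to 0.14). The 2 probes correlated at 0.87.

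Other intermediate filament genes differed in direction. Of 6 tested, 0 rose and 3 fell with the knockdown under doxycycline (20% and 20.2% of all genes) and 2 rose and 2 fell without it (9.89% and 10.5%). PLEC, the plectin that links vimentin filaments to junctions, fell by 1.45 ± 0.13 with siMondoA under doxycycline (adjusted p = 5.9e-06) and was higher with doxycycline in siControl cells by 1.09 (adjusted p = 0.00013), with an interaction of -1.40 (adjusted p = 0.0018). NES (nestin) fell in all 4 pairwise comparisons: it was 2.12-fold lower with the knockdown under doxycycline and 1.99-fold lower without, and 2.13-fold lower with doxycycline in siMondoA cells and 2.00-fold lower in siControl cells. NEFL, the light neurofilament, rose with doxycycline by 0.96 in siMondoA cells and 1.61 in siControl cells (adjusted p = 0.00047 and 1.2e-05).

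THY1, a glycolipid-anchored surface protein of mesenchymal stem cells, had the same crossed pattern as VIM. It read 9.41, 9.26 and 9.45 in doxycycline-treated siMondoA cells, 9.81, 9.81 and 9.79 in untreated siMondoA cells, 9.82, 9.92 and 9.74 in doxycycline-treated siControl cells and 9.35, 9.47 and 9.59 in untreated siControl cells. The 3 doxycycline-treated siMondoA arrays and the 3 untreated siControl arrays overlapped and lay below the other 6. The knockdown change was -0.45 ± 0.11 with doxycycline (adjusted p = 0.0073), and the 0.33 ± 0.11 without it did not pass (adjusted p = 0.061), though it did under 5 alternatives (0.011 to 0.041). Doxycycline changed THY1 by -0.43 in siMondoA cells (adjusted p = 0.016; 0.051 without doxycycline-treated siMondoA replicate 2) and by 0.36 in siControl cells (adjusted p = 0.038). The last call was lost without any of 6 arrays (0.051 to 0.13) and had an adjusted p of 0.051 under median scaling. The interaction of -0.79 ± 0.16 (adjusted p = 0.016) passed under every alternative, with adjusted p between 3e-04 and 0.041.

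CD44, the hyaluronan receptor, was lowest in untreated siControl cells. Probe ILMN_2348788 read 10.24, 10.41 and 10.39 in doxycycline-treated siMondoA cells, 10.37, 10.37 and 10.58 in untreated siMondoA cells, 10.34, 10.35 and 10.41 in doxycycline-treated siControl cells and 9.72, 9.64 and 9.51 in untreated siControl cells. The first 3 groups overlapped and lay above the last. Without doxycycline the knockdown change was 0.81 ± 0.11 (1.76-fold, adjusted p = 5e-04), and with doxycycline it was -0.02 (adjusted p = 0.89, 95% interval -0.27 to 0.22). Doxycycline raised the probe by 0.74 ± 0.11 in siControl cells (adjusted p = 0.00063), and the -0.10 in siMondoA cells did not pass (adjusted p = 0.61). The interaction was -0.84 ± 0.16 (adjusted p = 0.013) and passed under every alternative that included this probe. The fit with 1 probe per gene used the brightest probe instead.

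The brightest CD44 probe, ILMN_1803429, read 12.73, 12.48 and 12.59 in doxycycline-treated siMondoA cells, 12.67, 12.65 and 12.89 in untreated siMondoA cells, 12.46, 12.38 and 12.31 in doxycycline-treated siControl cells and 11.94, 12.16 and 11.98 in untreated siControl cells. Its knockdown change without doxycycline was 0.71 ± 0.12 (adjusted p = 0.002), and the 0.22 with doxycycline did not pass (adjusted p = 0.2). Under doxycycline every siMondoA array of this probe still lay above every siControl array. Its doxycycline change in siControl cells was 0.36 (adjusted p = 0.053) and its interaction -0.49 (adjusted p = 0.12). The 2 probes correlated at 0.84 and differed in which of these calls they passed. The third probe, ILMN_1778625, was detected on 9 of 12 arrays, read 4.82 to 5.76 and passed in 0 of the limma comparisons (unadjusted p between 0.569 and 0.962).

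Genes of the CD44 and hyaluronan system also changed. Of 10 tested, 3 rose and 5 fell with the knockdown under doxycycline (20% and 20.2% of all genes), and 3 rose and 1 fell without it (9.89% and 10.5%). HAS3, a hyaluronan synthase, rose by 0.66 ± 0.14 with doxycycline and 1.65 ± 0.14 without (adjusted p = 0.0023 and 8.6e-06), and CEMIP2, a hyaluronan-degrading surface protein, was 2.24-fold and 1.99-fold higher (adjusted p = 7.4e-05 and 0.00075). SPP1 (osteopontin), a CD44 ligand, fell by 0.96 with siMondoA under doxycycline (adjusted p = 4e-05), and HMMR, the other hyaluronan receptor named in the list, fell by 1.03 there (adjusted p = 0.00027). The interaction was negative for 4 of the 10 and positive for 0 (3.58% and 2.23% of all genes). These interactions were of HAS3 (-0.99), HMMR (-0.91), EZR (-0.87), which links CD44 to actin, and SPP1 (-0.69), with adjusted p between 0.013 and 0.035. Those of HMMR and SPP1 were lost in 9 and 10 alternatives. Doxycycline raised 1 gene and lowered 2 in siMondoA cells (12.7% and 12.7% of all genes) and raised 3 and lowered 0 in siControl cells (14.4% and 12.4%).

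Of 27 mesenchymal surface, matrix and contractile genes tested, 9 rose and 1 fell with doxycycline in siMondoA cells (12.7% and 12.7% of all genes) and 18 rose and 0 fell in siControl cells (14.4% and 12.4%). The median doxycycline change was 0.24 in siMondoA cells and 0.52 in siControl cells, against 0.02 and 0.01 over all genes. With the knockdown 4 rose and 14 fell under doxycycline (20% and 20.2% of all genes), with a median of -0.32 against 0.03, and 7 rose and 7 fell without it (9.89% and 10.5%). SPARC, a matrix glycoprotein, rose with doxycycline in siControl cells by 1.79 ± 0.16 (adjusted p = 1.9e-05) and fell by 2.51 ± 0.16 with siMondoA under doxycycline (adjusted p = 4.4e-07), with an interaction of -1.41 (adjusted p = 0.0051). TAGLN (transgelin), an actin-binding protein, fell by 2.50 with the knockdown under doxycycline and fell by 1.94 without it (adjusted p = 5.2e-08 and 8e-07). AXL, a receptor tyrosine kinase, fell by 1.36 with siMondoA under doxycycline (adjusted p = 7.6e-06), with an interaction of -1.04 (adjusted p = 0.0072).

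Directions differed among other genes of that group. NT5E (CD73), a surface nucleotidase of mesenchymal stem cells, rose with the knockdown by 1.30 with doxycycline and 1.64 without it (adjusted p = 2.3e-05 and 1.3e-05), while without doxycycline the platelet-derived growth factor receptors PDGFRB fell by 1.30 and PDGFRA fell by 1.22 (adjusted p = 3.4e-05 and 0.0028). ACTA2, smooth muscle actin, rose with doxycycline in siMondoA cells by 0.80 (adjusted p = 0.00025) and had an interaction of 0.99 (adjusted p = 0.0032), which was 0.66 under median scaling (adjusted p = 0.078). The interaction was positive for 1 and negative for 4 of the 27 genes (2.23% and 3.58% of all genes). Under median scaling these counts were 0 and 6. Probes of TPM1 disagreed: without doxycycline its brightest probe rose by 0.51 with the knockdown and ILMN_1685339 fell by 0.70. Fibroblast markers changed as well. Of the detected DCN, LUM, PDGFRL and FBLN1, 0 rose and 4 fell with the knockdown under doxycycline (20% and 20.2% of all genes). Without doxycycline 0 rose and 2 fell (9.89% and 10.5%). Doxycycline raised 2 and lowered 1 in siMondoA cells (12.7% and 12.7%) and raised 3 and lowered 0 in siControl cells (14.4% and 12.4%). In siControl cells LUM rose by 1.23 and DCN by 1.13. The summed normalized intensity of all 5 fibroblast markers on the array, with the undetected DPT, was 3720 to 3858 in doxycycline-treated siMondoA cells and 3880 to 4170 in untreated siMondoA cells. It was 7461 to 8437 in doxycycline-treated siControl cells and 5406 to 5671 in untreated siControl cells. The part of these markers in the result was not tested.

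**Figure D3:**
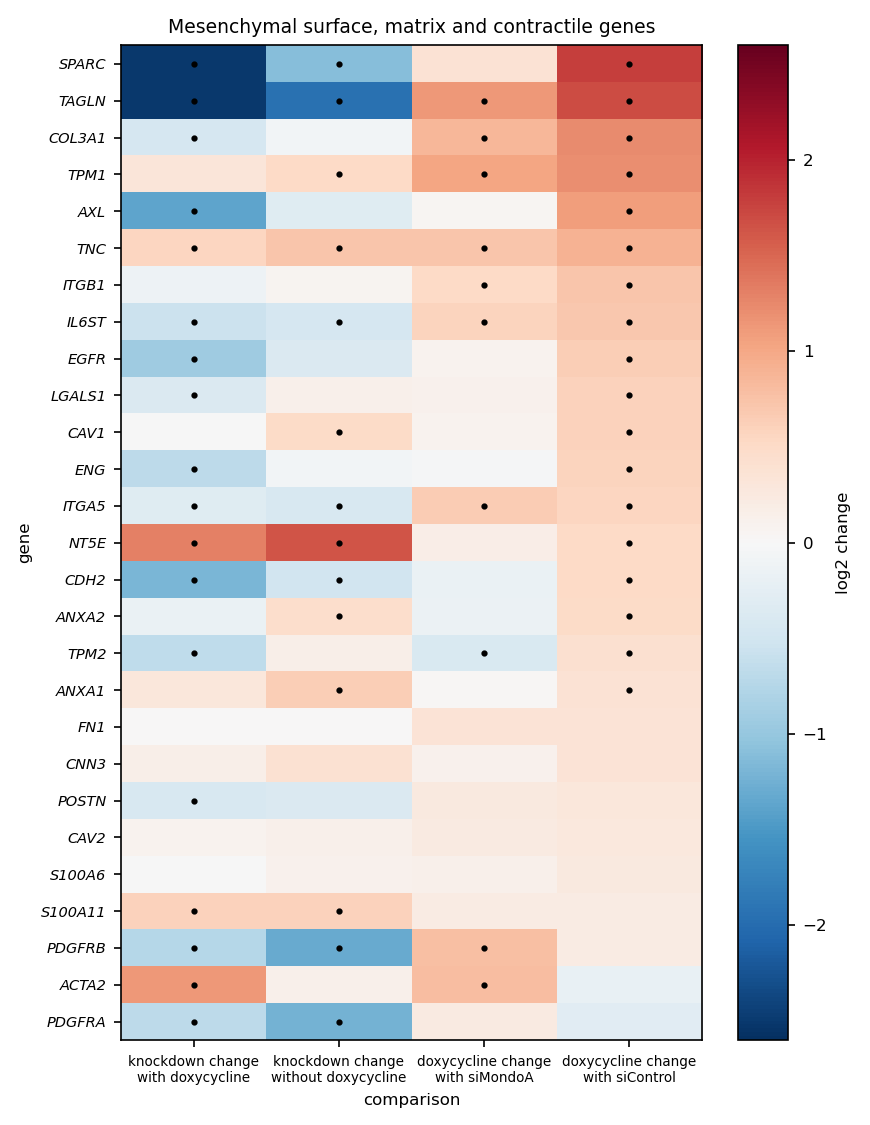
Log2 change (colour, red higher and blue lower) of the 27 tested mesenchymal surface, matrix and contractile genes (rows) in the 4 pairwise comparisons (columns), sorted by the doxycycline change in siControl cells; a dot marks a change that passed the adjusted p threshold. The right column holds 18 dots, all on red cells, and the left column holds 14 on blue cells and 4 on red cells.

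Of 14 adrenergic genes tested, 4 rose and 1 fell with the knockdown under doxycycline (20% and 20.2% of all genes) and 2 rose and 0 fell without it (9.89% and 10.5%). Doxycycline raised 0 and lowered 0 in siMondoA cells (12.7% and 12.7%) and raised 1 and lowered 0 in siControl cells (14.4% and 12.4%). GAP43, a growth cone protein, was not detected in doxycycline-treated siControl cells and was at least 3.61-fold higher in doxycycline-treated siMondoA cells (adjusted p = 1.5e-05), and the sympathetic factor HAND2 rose by 0.67 there (adjusted p = 0.0038). The summed normalized intensity of all 27 adrenergic genes on the array, detected or not, was 2297 to 2621 in doxycycline-treated siMondoA cells and 2098 to 2226 in untreated siMondoA cells. It was 1911 to 1991 in doxycycline-treated siControl cells and 1837 to 1992 in untreated siControl cells. Of 8 epithelial genes tested, 1 rose and 2 fell with the knockdown under doxycycline (20% and 20.2% of all genes) and 1 rose and 1 fell without it (9.89% and 10.5%). Doxycycline raised 1 and lowered 1 of them in siMondoA cells (12.7% and 12.7%) and raised 3 and lowered 1 in siControl cells (14.4% and 12.4%). KRT8, a keratin, fell by 1.66 with siMondoA under doxycycline and rose by 0.72 without it (adjusted p = 3.4e-06 and 0.0043), with an interaction of -2.39 ± 0.20 (adjusted p = 6.6e-05). Probes of KRT18, the keratin that pairs with KRT8, disagreed: with the knockdown under doxycycline ILMN_1730848 rose by 0.69 (adjusted p = 0.0064) and the brighter probe changed by -0.52 (adjusted p = 0.074).

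**Figure D4:**
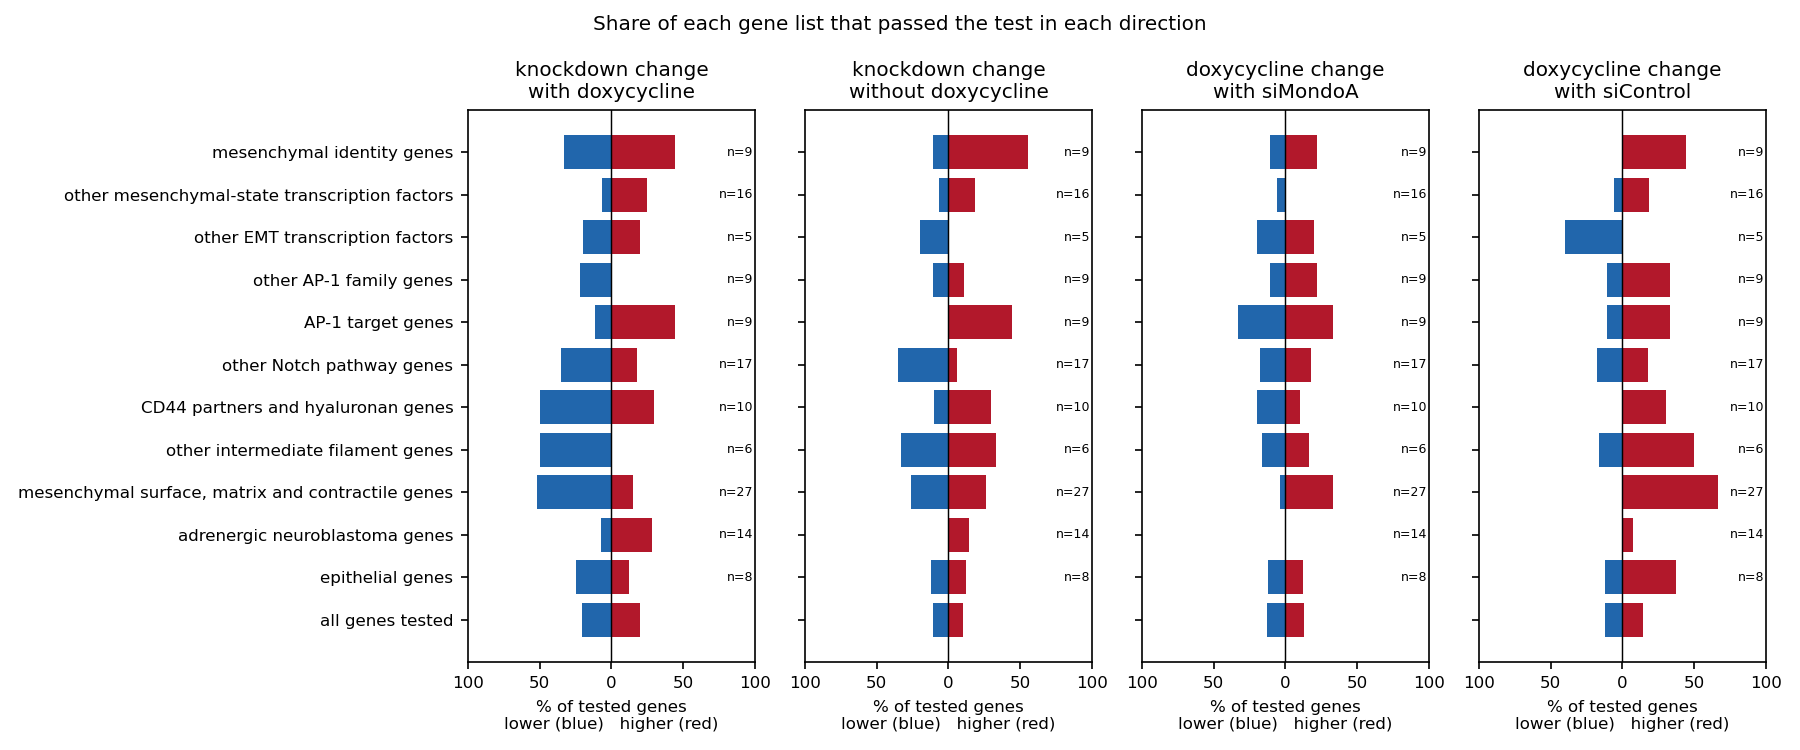
Percentage of each list's tested genes that were called lower (blue, left of 0) or higher (red, right of 0) in the 4 pairwise comparisons, with the number tested at the right and all 12178 genes in the bottom row. The mesenchymal surface, matrix and contractile genes have 14 of 27 lower for the knockdown with doxycycline and 18 of 27 higher for doxycycline in siControl cells, and the mesenchymal identity genes have 5 of 9 higher for the knockdown without doxycycline.

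Over the 12 arrays the members fell into sets by their profiles, given here as a description of arrays that share treatments. NOTCH2 ran against FOSL1 (Pearson r = -0.90) and PRRX1 (-0.89), which ran together (0.87). SNAI2 ran with CD44 (0.80) and TWIST1 (0.79), and VIM with THY1 (0.72). The gene most like SNAI2 was TP53I3 (0.99), followed by MMP3 and ATOH8 (both 0.98). KIFAP3 was most like NOTCH2 (0.97), SLC35F2 like PRRX1 (0.96), SNAR-A1 like FOSL1 (0.96), ZSWIM6 like TWIST1 (0.96), NKIRAS1 like CD44 (0.94), CSF1R like VIM (0.93), KRT8 like THY1 (0.92) and TCHP like FOSL2 (0.92).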

How the data were processed

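The authors deposited bead-summarized probe intensities, found from the values to be neither background-subtracted nor normalized, and detection scores, found to be 1 minus the detection p. They also deposited log2 values, found to equal the log2 of quantile-normalized intensities (largest difference 5.3e-14). The submitters' processing notes name lumi without its role. Intensities were background-corrected, quantile-normalized and put on a log2 scale by limma 3.58.1 (neqc, offset 16; R 4.3.3). Probes detected at p below 0.05 on at least 3 arrays were fitted as 4 group means (8 residual and 4.578 prior degrees of freedom, median SE 0.169), with Benjamini-Hochberg adjustment and a threshold of 0.05. The fit was tested on simulated data. The number of arrays limits the precision.

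A gene in a list was represented by its detected probe with the highest mean. Probes were named through the platform annotation (30108 with 1 symbol, 8 with several, 17197 with none). Member genes and lists were chosen with earlier results of these data known. Every member was named, up to 4 called genes with the largest change per list and comparison, and the 3 genes most correlated with each member, of which the first is given for most; TXNIP, MLXIP, MYCN and MYC checked the labels. A probe undetected in a group has only a bound there: "at least" folds set the brighter group's mean against the higher of the probe's signal and the lowest detected signal. Same-numbered arrays were not paired (correlation of deviations -0.101 to 0.0745 over 18 pairs, 0 above 0.1). Slides and scan dates are not among the labels, and no batch term was fitted.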

Additional observations from a re-analysis of the deposited data

Results flagged for a closer look

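The knockdown change of 3 member probes differed between doxycycline-treated and untreated cells by the test of the difference itself (limma's interaction term over 12 arrays, adjusted over 22188 probes). For VIM ILMN_1782538 the interaction was -0.77 (adjusted p = 0.017), for THY1 ILMN_1779875 it was -0.79 (adjusted p = 0.016) and for CD44 ILMN_2348788 it was -0.84 (adjusted p = 0.013). For VIM and THY1 the knockdown change was below 0 with doxycycline and above 0 without it on every pair of group means. For THY1 the change without doxycycline did not pass. The second VIM probe, ILMN_2058251, had the same signs but did not pass the interaction (-0.64, adjusted p = 0.071). Its knockdown changes did not pass either (adjusted p = 0.11 with doxycycline and 0.098 without). For this CD44 probe the knockdown change was near 0 with doxycycline and positive without it. The brightest CD44 probe, ILMN_1803429, changed by 0.22 with doxycycline and did not pass the interaction (-0.49, adjusted p = 0.12). Each of the 3 interactions stayed called when any 1 of the 12 arrays was left out, with adjusted p between 0.011 and 0.048 for VIM, 0.022 and 0.041 for THY1 and 0.016 and 0.036 for CD44.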

How the results depend on the processing

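Of 30 called member results, 536 of 589 alternative values kept direction and call, 53 lost the call and 0 reversed. Of 40 results not called, 28 of 772 alternative values passed and 27 reversed. Median scaling left 4 of 14 member probes called for the knockdown with doxycycline (8 as reported) and 4 for doxycycline in siControl cells (7 as reported), where leaving out 1 array gave 4 to 8. The interaction had 5 called member probes on the deposited log2 values (3 as reported). Quantile normalization with no background correction gave the same values as the deposited ones and was counted once. Leaving out 1 array gave 7 to 9 for the knockdown with doxycycline, 6 to 8 without, 3 to 5 for doxycycline in siMondoA cells and 3 to 4 for the interaction. With the replicate number as a block 8, 8, 4, 5 and 3 member probes were called, for the knockdown without and with doxycycline, doxycycline in siMondoA and in siControl cells and the interaction. The block ended the calls of VIM ILMN_2058251 (adjusted p = 0.066) and THY1 (0.06) for doxycycline in siControl cells; 4 of 12 arrays were closest to their own number. A fit of 2 groups only gives no interaction.

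The reversed values all belonged to changes that did not pass. Median scaling gave -0.25 for PRRX1 ILMN_1739496 in the interaction and, for doxycycline in siControl cells, 0.13 for FOSL1 and 0.039 for PRRX1 ILMN_1811851. Leaving out 1 array gave FOSL2 ranges of -0.37 to 0.14 (knockdown with doxycycline), -0.29 to 0.23 (doxycycline in siMondoA cells) and -0.51 to 0.0012 (interaction). It gave PRRX1 ILMN_1739496 -0.021 to 0.14 in the interaction, FOSL1 -0.14 to 0.071 for doxycycline in siControl cells and CD44 ILMN_2348788 -0.057 to 0.028 for the knockdown with doxycycline. PRRX1 ILMN_1811851 ranged from -0.29 to 0.015 for doxycycline in siControl cells, -0.39 to 0.022 in siMondoA cells and -0.28 to 0.13 in the interaction. CD44 ILMN_1778625 ranged from -0.21 to 0.24 (knockdown without doxycycline), -0.27 to 0.072 (with), -0.31 to 0.15 (doxycycline in siMondoA cells), -0.050 to 0.20 (in siControl cells) and -0.38 to 0.074 (interaction). The cause of these shifts was not tested. Of 227 called results of list genes, a check added after the data had been seen, 4517 alternatives gave 407 lost calls and 0 reversals. Dim probes (FOSL2, PRRX1 ILMN_1811851, CD44 ILMN_1778625) limit what can be seen.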
